A study of Mus musculus with 5 samples.

Results

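The type 17 program genes described here are *Rora*, *Maf*, *Ahr*, *Il23r*, *Il1r1*, *Il17re*, *Il17rb*, *Il17ra* and *Ccr6*. They were chosen by name, with earlier results of these data known, and looked up by their Ensembl identifiers in the read counts of CD4 single-positive (CD4 SP) thymocytes. All 9 were found among the 55487 gene identifiers of the count files, and all 9 passed the filter on low counts that left 13525 genes for testing.

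Type 17 lymphocytes are T cells and innate lymphocytes that make IL-17 family cytokines and guard skin and mucosal barriers. Nuclear receptors of the ROR family, with the factors c-MAF and AHR, set up the program, IL-23 and IL-1 act through their receptors to maintain and trigger it, and CCR6 guides the cells towards the chemokine CCL20. In the thymus the program is known from gamma-delta T cells and from invariant natural killer T (iNKT) and mucosal-associated invariant T (MAIT) cells, whereas conventional CD4 T cells usually acquire it after they leave.

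The RNA came from 3 WT (wild type) mice and from 2 *Tet2/3* DKO mice of strain C57BL/6J, with 1 library per mouse at 21 to 30 days of age, and the question was how loss of TET2 and TET3 alters the transcriptome of these cells. *Tet2/3* DKO mice are *Tet2*-/- in all cells and carry *Tet3* flx/flx, deleted by a CD4Cre transgene, so that *Tet3* is lost in cells that have passed a stage expressing CD4 while *Tet2* is lost throughout the animal. WT mice are labelled wild type with no further allele. The sorted cells were alive, CD24 low, CD4 and TCRb positive, CD8 negative and negative for the alpha-galactosylceramide CD1d tetramer, a reagent that binds iNKT cells. TET enzymes oxidise methylated cytosine in CpG dinucleotides, which is a step towards its removal.

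Reads counted on genes ranged from 23529075 to 27267031 in the WT libraries and were 21371743 and 17607089 in *Tet2/3* DKO replicates 1 and 2. *Tet3* was counted 1133, 1082 and 1440 times in WT mice, against 419 and 235 times in *Tet2/3* DKO mice (log2 fold change -1.50, standard error 0.18, adjusted p = 0.00121; edgeR quasi-likelihood test, Benjamini-Hochberg adjusted over all tested genes, as for every adjusted p below). *Tet2* was not lower, at 1355, 1286 and 1585 reads in WT mice against 1919 and 1048 in *Tet2/3* DKO mice (log2 fold change 0.46, adjusted p = 0.135, edgeR), and a count over the whole gene does not test whether single exons are missing. The labels call WT replicate 1 female and the other mice male. *Xist*, read from the inactive X chromosome, and the summed *Uty*, *Eif2s3y*, *Kdm5d* and *Ddx3y* of the Y chromosome go against this label in 2 libraries. WT replicate 1 had 0 *Xist* and 6821 Y-linked counts, and *Tet2/3* DKO replicate 1 had 744 *Xist* and 7 Y-linked counts. The called genes are therefore also given without these libraries, and the part of sex in the results was not tested.

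Of the 9 genes, *Maf*, *Il23r* and *Il1r1* were higher and *Ccr6* was lower in *Tet2/3* DKO cells at an adjusted p-value under 0.01 over all tested genes. These are 4 of 9 genes, where 3.92% of all 13525 tested genes were called, 2.42% as higher and 1.5% as lower. *Il17re* was just outside the threshold, *Il17rb* and *Ahr* had higher values in both *Tet2/3* DKO libraries without passing it, and no difference was detected for *Rora* and *Il17ra*. Without WT replicate 1 the number called was 1, where 1.14% of all tested genes were called. A fit without *Tet2/3* DKO replicate 1 keeps a lone *Tet2/3* DKO library. Its spread is assumed to be that of the WT libraries, so calls in that fit do not show stability. Libraries of the genotypes did not overlap for 7 of the 9 genes, where 39.1% of all tested genes were apart. This held for 6 genes that were higher in *Tet2/3* DKO cells and for 1 that was lower, where 19.6% and 19.5% of all tested genes were apart in these directions. *Il23r* and *Il1r1* were at the count minimum in 0 WT libraries and entered the test through the *Tet2/3* DKO libraries. Of the 720 tested genes at the minimum in fewer than 2 WT libraries, 11.4% were called. In bulk RNA, fewer or more cells of a kind and less or more RNA per cell cannot be told apart.

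**Figure D1:**
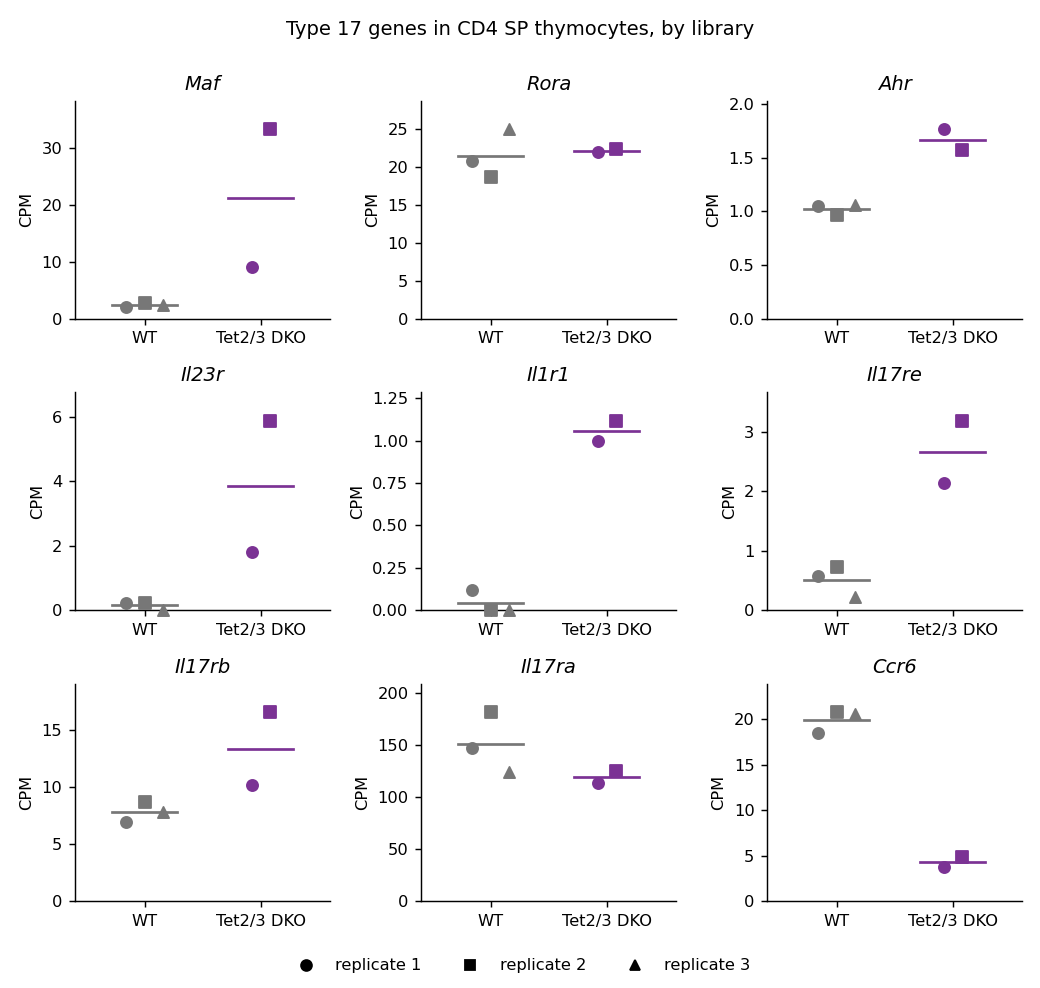
CPM (reads scaled to a common library size by TMM; y axes, linear and starting at 0) of the 9 type 17 genes in each library, with the replicates as symbols and the group means as lines (WT, n = 3; *Tet2/3* DKO, n = 2). *Ccr6* lies between 18.5 and 20.8 CPM in WT and at 3.81 and 4.87 CPM in *Tet2/3* DKO libraries, while *Maf* and *Il23r* differ between the 2 *Tet2/3* DKO libraries by 3.70-fold and 3.24-fold.

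The sequences before the transcription starts are shown for 3 genes that changed and for *Rora*, which was not called. They were picked by these calls and differ in the number of CpG dinucleotides. Each is the 250 bases before a RefSeq start (GRCm38.p6, strand of the gene, 5′ to 3′), with every CpG in capitals. Of the 9 genes, 6 were matched in RefSeq, with 8 starts. The others are *Maf*, *Ahr* and *Il17ra*. The *Il23r* window is chr6:67491856-67492105 on the minus strand. The *Il1r1* windows are chr1:40224830-40225079 and chr1:40266336-40266585, the *Ccr6* windows chr17:8235793-8236042 and chr17:8242276-8242525, and the *Rora* window chr9:68653536-68653785, all on the plus strand. None of these 6 windows holds an annotated exon base, and the later windows of *Il1r1* and *Ccr6* lie in introns of the longer transcripts.
Il23r: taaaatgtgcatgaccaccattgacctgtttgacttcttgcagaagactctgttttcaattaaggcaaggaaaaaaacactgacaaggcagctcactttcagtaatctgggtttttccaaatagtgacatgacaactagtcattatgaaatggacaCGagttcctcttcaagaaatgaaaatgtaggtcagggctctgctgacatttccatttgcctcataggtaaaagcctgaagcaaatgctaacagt
Il1r1, first start: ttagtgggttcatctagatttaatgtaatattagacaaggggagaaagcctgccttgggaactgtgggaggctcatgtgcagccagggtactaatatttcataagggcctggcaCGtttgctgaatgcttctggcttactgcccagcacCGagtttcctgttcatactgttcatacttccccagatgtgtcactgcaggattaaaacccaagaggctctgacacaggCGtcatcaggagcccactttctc
Il1r1, second start: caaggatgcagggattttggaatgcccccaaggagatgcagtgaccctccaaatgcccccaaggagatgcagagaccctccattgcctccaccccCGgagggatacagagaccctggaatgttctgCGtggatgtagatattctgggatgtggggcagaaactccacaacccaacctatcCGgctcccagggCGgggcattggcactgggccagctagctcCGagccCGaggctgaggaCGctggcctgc
Ccr6, first start: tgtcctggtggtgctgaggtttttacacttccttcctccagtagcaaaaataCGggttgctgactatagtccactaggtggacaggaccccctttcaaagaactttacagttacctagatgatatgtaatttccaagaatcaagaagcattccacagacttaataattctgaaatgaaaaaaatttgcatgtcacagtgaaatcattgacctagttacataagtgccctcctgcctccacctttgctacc
Ccr6, second start: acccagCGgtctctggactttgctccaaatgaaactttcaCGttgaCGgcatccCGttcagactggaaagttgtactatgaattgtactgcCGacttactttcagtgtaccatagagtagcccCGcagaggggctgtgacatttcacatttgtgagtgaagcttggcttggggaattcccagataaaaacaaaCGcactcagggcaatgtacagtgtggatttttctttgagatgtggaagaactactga
Rora: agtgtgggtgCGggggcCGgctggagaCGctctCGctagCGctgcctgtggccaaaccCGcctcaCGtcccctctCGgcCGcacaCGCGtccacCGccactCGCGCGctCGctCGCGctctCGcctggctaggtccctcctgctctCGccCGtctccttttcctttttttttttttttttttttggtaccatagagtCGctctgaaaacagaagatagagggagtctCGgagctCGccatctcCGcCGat

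The median over 32851 such windows was 6 CpG. The *Il23r* window and the first *Ccr6* window held 1 CpG each, a number not exceeded by 18.8% of windows. The *Il1r1* windows held 3 and 7, the second *Ccr6* window 7, and the *Il17re* window 2. *Rora* held 26 and *Il17rb* 27, and 91.4% and 92.4% of windows had no more than these. Of the 6 genes with a sequence, the 3 that passed the threshold had fewer than 10 CpG before every start, as did *Il17re*. The *Il17re* window lies wholly in annotated exon sequence and no annotated transcript begins at its start, so it may not be upstream sequence, and 124 of the 250 bases of the *Il17rb* window are exonic. Among all tested genes with such a sequence, 8.34% of 2218 genes with fewer than 10 CpG before every start were called and 2.73% of 7358 genes with at least 10 CpG before a start. No methylation was measured in these samples, and the part of CpG number in the calls was not tested.

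Short motifs were searched on both strands of the 8 windows as a description only. AGGTCA, the core that ROR factors bind (reverse complement TGACCT), was present on each strand of the *Il23r* window and on the other strand of the first *Ccr6* window, and 14.0% of all windows held it. TGCTGA, part of the element bound by MAF factors (reverse complement TCAGCA), was found in the *Il23r* window, the first *Il1r1* window and at 2 places in the first *Ccr6* window, against 16.1% of windows. GCGTG, the core bound by AHR with ARNT (reverse complement CACGC), occurred in the second *Il1r1* window and in the windows of *Rora* and *Il17rb*, against 28.2% of windows. No motif is contained in another. A match of letters is not evidence of binding.

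*Maf* encodes c-MAF, a basic leucine zipper factor that type 17 gamma-delta T cells and iNKT cells need. *Maf* (ENSMUSG00000055435, chromosome 8 of mm10 from 115682942 to 115707794, minus strand) was counted 55, 67 and 66 times in WT mice 1, 2 and 3, against 189 and 596 times in *Tet2/3* DKO mice 1 and 2. Both *Tet2/3* DKO libraries lay above every WT library, and the second was far above the first. The level rose from 2.45 ± 0.350 CPM (SD, n = 3) to 21.2 ± 17.2 CPM (SD, n = 2), an 8.49-fold difference (log2 fold change 3.09, standard error 0.52, 95% interval 1.91 to 4.26, adjusted p = 0.00652, edgeR). Without *Tet2/3* DKO replicate 2 the log2 fold change was 1.87, and without replicate 1 it was 3.77, so the size depended on the library. Each of these fits keeps a lone *Tet2/3* DKO library, so spread within that genotype is not measured. The call was lost without WT replicates 1, 2 or 3 (adjusted p = 0.0353, 0.0528 and 0.0542, edgeR) and with robust moderation of the dispersions (adjusted p = 0.0780).

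*Rora* encodes the nuclear receptor ROR-alpha, which takes part in type 17 differentiation and is also needed by group 2 innate lymphoid cells. *Rora* (ENSMUSG00000032238, chromosome 9 from 68653786 to 69388246, plus strand) was counted 538, 444 and 687 times in WT mice, against 461 and 401 times in *Tet2/3* DKO mice. The *Tet2/3* DKO values fell within the WT range on the CPM scale. The level was 21.5 ± 3.22 CPM in WT (SD, n = 3) and 22.2 ± 0.324 CPM in *Tet2/3* DKO cells (SD, n = 2). In edgeR the log2 fold change was 0.04 (standard error 0.16, 95% interval -0.31 to 0.39, adjusted p = 0.918, edgeR). The sign turned without WT replicate 2, to -0.049 (adjusted p = 0.912).

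*Ahr* encodes the aryl hydrocarbon receptor, a ligand-activated factor that IL-22 production depends on. *Ahr* (ENSMUSG00000019256, chromosome 12 from 35497974 to 35535038, minus strand) was counted 27, 23 and 29 times in WT mice, against 37 and 28 times in *Tet2/3* DKO mice. Scaled to library size the groups did not overlap, with 1.02 ± 0.0474 CPM in WT (SD, n = 3) and 1.67 ± 0.140 CPM in *Tet2/3* DKO cells (SD, n = 2). The log2 fold change of 0.70 (standard error 0.34, 95% interval -0.07 to 1.48) did not pass the test (adjusted p = 0.264, edgeR). *Ahr* shares 127 exon bases with a long noncoding RNA on the other strand, and reads there are left out of the deposited counts. Over both strand columns, which keep them, the sum was 1.46 times the count and the log2 fold change 0.96 (adjusted p = 0.0929, edgeR).

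Among the cytokine receptors, *Il23r* and *Il1r1* were at or near 0 in WT cells and detected in both *Tet2/3* DKO libraries. *Il23r* encodes the chain that pairs with IL-12Rb1 to form the IL-23 receptor. *Il23r* (ENSMUSG00000049093, chromosome 6 from 67422932 to 67491855, minus strand) was counted 6, 5 and 0 times in WT mice 1, 2 and 3, against 38 and 105 times in *Tet2/3* DKO mice 1 and 2. No WT library reached the level of either *Tet2/3* DKO library. The WT level was 0.148 ± 0.128 CPM (SD, n = 3) and the *Tet2/3* DKO level 3.84 ± 2.87 CPM (SD, n = 2). The log2 fold change was 4.65 (standard error 0.79, 95% interval 2.88 to 6.42, adjusted p = 0.00585, edgeR), and the ratio of the summed counts, scaled to library size, was 25.8 (exact 95% interval 14.0 to 52.8, counting error only). It ranged from 3.60 to 5.31 on the log2 scale as each library was left out. The call was lost without WT replicates 1, 2 or 3 (adjusted p = 0.0287, 0.0513 and 0.0534, edgeR).

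*Il1r1* encodes the signalling receptor for IL-1. *Il1r1* (ENSMUSG00000026072, chromosome 1 from 40225080 to 40317257, plus strand) was counted 3, 0 and 0 times in WT mice, against 21 and 20 times in *Tet2/3* DKO mice. The 2 *Tet2/3* DKO libraries were close, with a CPM ratio of 1.12 between them, and all WT libraries were at or under the floor of 3 counts. The fit gave a log2 fold change of 4.58 (standard error 0.86, 95% interval 2.72 to 6.44, adjusted p = 0.00534, edgeR), and the ratio of summed counts 27.1 carries a wide exact 95% interval, from 8.65 to 137 (counting error only). *Il1r1* was not called without WT replicates 1, 2 or 3 (adjusted p = 0.0188, 0.0427 and 0.0375), with the legacy dispersion moderation (0.0134) or with the replicate number as a block in the model (0.0305), all with edgeR. Without *Tet2/3* DKO replicate 1 its log2 fold change was 4.67.

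*Il17re* encodes the chain that forms the IL-17C receptor with IL-17RA. *Il17re* (ENSMUSG00000043088, chromosome 6 from 113458484 to 113470758, plus strand) was counted 15, 17 and 6 times in WT mice, against 45 and 57 times in *Tet2/3* DKO mice. The groups did not overlap. The level was 0.505 ± 0.257 CPM in WT (SD, n = 3) and 2.67 ± 0.738 CPM in *Tet2/3* DKO cells (SD, n = 2). In edgeR the log2 fold change was 2.40 (standard error 0.45, 95% interval 1.38 to 3.43, adjusted p = 0.0115, edgeR). It passed the threshold in 5 of the 14 alternative fits, among them DESeq2 (adjusted p = 0.0031). These fits include the one without *Tet2/3* DKO replicate 1, which keeps a lone *Tet2/3* DKO library.

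*Il17rb* encodes the chain that binds IL-25 together with IL-17RA, and it marks subsets of iNKT cells and type 2 lymphocytes. *Il17rb* (ENSMUSG00000015966, chromosome 14 from 29996135 to 30008896, minus strand) was counted 180, 207 and 215 times in WT mice, against 213 and 296 times in *Tet2/3* DKO mice. On the CPM scale both *Tet2/3* DKO libraries were above all WT libraries, with 7.84 ± 0.880 CPM in WT (SD, n = 3) and 13.4 ± 4.53 CPM in *Tet2/3* DKO cells (SD, n = 2). The log2 fold change of 0.76 (standard error 0.23, 95% interval 0.23 to 1.28) did not pass the test (adjusted p = 0.0841, edgeR), and it ranged from 0.36 to 1.08 as each library was left out. It passed only without *Tet2/3* DKO replicate 1, in a fit that keeps a lone *Tet2/3* DKO library. *Il17rb* shares 141 exon bases with *Actr8* on the other strand, and reads there are not in its count.

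*Il17ra* encodes the chain common to the IL-17 receptors and is expressed by most cells. *Il17ra* (ENSMUSG00000002897, chromosome 6 from 120463247 to 120487559, plus strand) was counted 3811, 4321 and 3415 times in WT mice, against 2394 and 2242 times in *Tet2/3* DKO mice. Scaled to library size the groups overlapped, at 151 ± 29.0 CPM in WT (SD, n = 3) and 120 ± 7.99 CPM in *Tet2/3* DKO cells (SD, n = 2). The log2 fold change of -0.34 (standard error 0.15, 95% interval -0.67 to 0.000107) did not pass the test (adjusted p = 0.217, edgeR).

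*Ccr6* was the only one of the 9 called lower. *Ccr6* encodes the receptor for CCL20, which type 17 cells, regulatory T cells and B cells carry. *Ccr6* (ENSMUSG00000040899, chromosome 17 from 8236043 to 8257141, plus strand) was counted 478, 494 and 566 times in WT mice, against 80 and 87 times in *Tet2/3* DKO mice. The groups were far apart and each was narrow, at 20.0 ± 1.29 CPM in WT (SD, n = 3) and 4.34 ± 0.745 CPM in *Tet2/3* DKO cells (SD, n = 2). It was 4.63-fold lower (log2 fold change -2.21, standard error 0.19, 95% interval -2.65 to -1.78, adjusted p = 0.000206, edgeR). The call held in all 15 fits, with log2 fold changes from -2.40 to -2.04 as each library was left out and an adjusted p of at most 0.0055. *Ccr6* was the 1 gene of the 9 that stayed called when any WT library was left out. The fits without WT replicates 1, 2 and 3 called 1.14%, 0.822% and 0.956% of all tested genes.

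**Figure D2:**
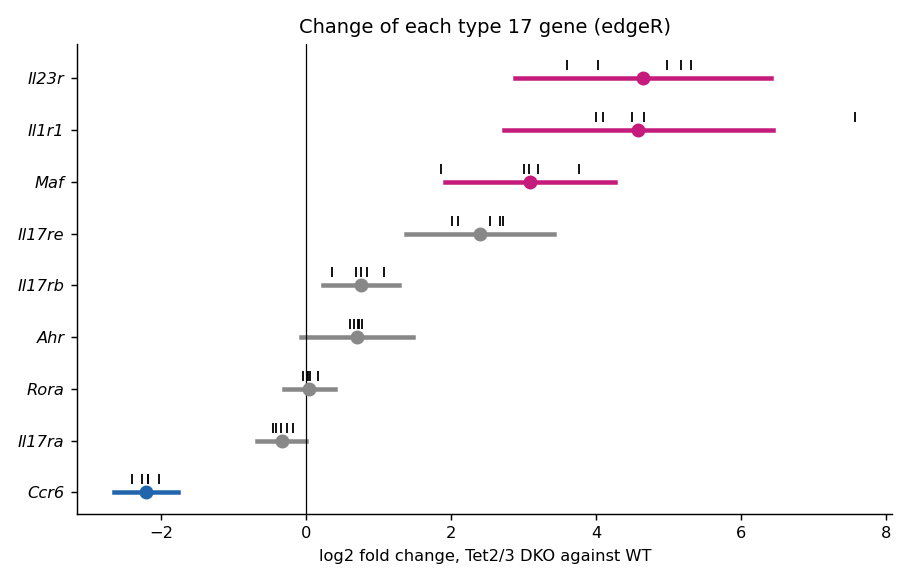
Log2 fold change of each type 17 gene in *Tet2/3* DKO against WT cells (x axis; points with 95% intervals as bars) from edgeR, in pink for genes called higher, blue for called lower and grey for not called, with the 5 leave-one-out fits as ticks above. *Il1r1* has a tick beyond its interval, from the fit without WT replicate 1, in which no WT count remains and the fitted size depends on the prior count.

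**Figure D3:**
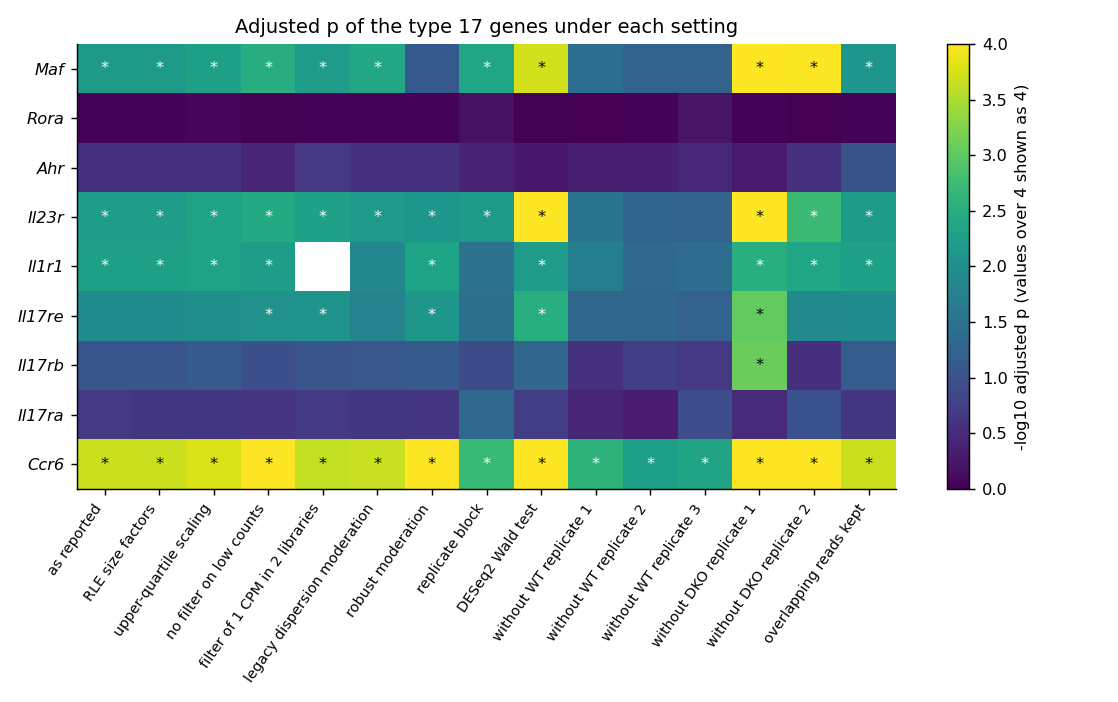
Adjusted p-values of the 9 genes (colour, minus log10) in the reported fit and the 14 alternatives, with an asterisk where the adjusted p is under 0.01 and white where a gene was not tested. *Ccr6* carries an asterisk in every column, and no other gene carries one in the 3 columns that leave out a WT library.

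Levels can be compared between genes only per length of exon. In WT cells *Il17ra* stood first at 17.5 CPM per kb and *Ccr6* second at 8.61. *Il17rb* followed at 2.11 and *Rora* at 1.65, whose library ranges overlap, and then *Maf* at 0.298, *Ahr* at 0.166, *Il17re* at 0.0861, *Il23r* at 0.0593 and *Il1r1* at 0.00608. The ranges of the last 3 overlap with their neighbours. In *Tet2/3* DKO cells *Il17ra* again stood first, at 13.8 CPM per kb. *Il17rb*, *Maf*, *Ccr6*, *Rora* and *Il23r* followed, with means from 3.60 to 1.54 CPM per kb. The range of *Il17rb* lay above those of *Ccr6*, *Rora* and *Il23r*, which overlap one another, and the range of *Maf* overlaps all 4. *Il17re* (0.455), *Ahr* (0.270) and *Il1r1* (0.167) came below. Against the 13516 tested genes with an exon length, *Ccr6* stood at percentile 63.5 of the level in WT and 35.3 in *Tet2/3* DKO cells, *Maf* at 11.9 and 41.2, and *Il23r* at 1.89 and 32.0.

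**Figure D4:**
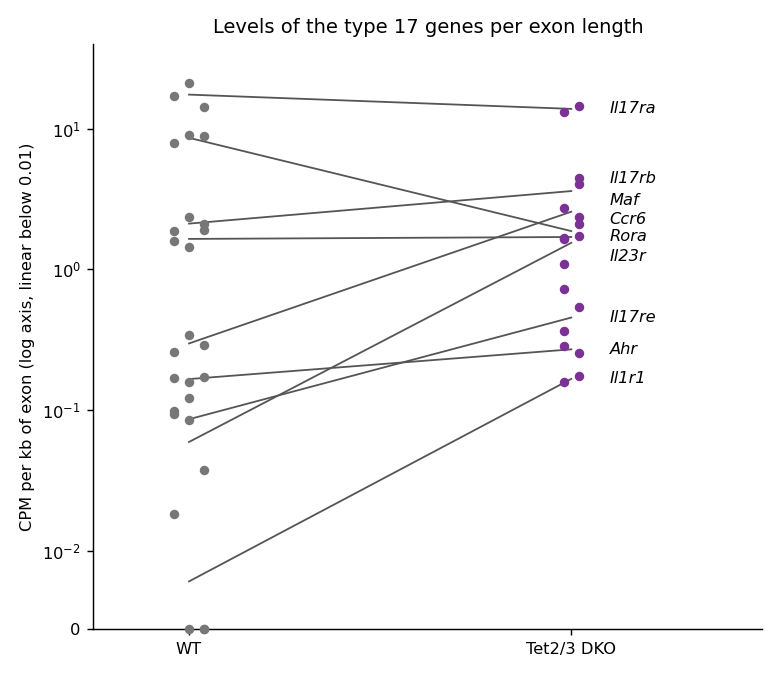
Level of each type 17 gene in CPM per kb of exon (y axis, logarithmic above 0.01 and linear below it) in WT and *Tet2/3* DKO libraries as points, with lines joining the group means. The line of *Ccr6* crosses those of *Il17rb* and *Maf*, and 5 genes lie between 1.54 and 3.60 CPM per kb in *Tet2/3* DKO cells.

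By Pearson correlation of log2 CPM over the 5 libraries, which measures likeness without regard to the size of the change, genes most like *Maf* included *Casp4* (r = 0.999) and *Galm*. For *Il23r* they were *Atl3* (r = 0.9998), *Ganc* and *Ank*, for *Il1r1* *Gm28935*, *Txndc17* and *Ctsc*, and for *Ccr6* *Dusp7*, *Sh3d19* and *Oit3*. With 5 libraries in 2 genotypes many genes are as similar, and 378, 298, 403 and 486 genes had a correlation above 0.95 with *Maf*, *Il23r*, *Il1r1* and *Ccr6*. The points share their libraries and depth.

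A list of 92 other genes of the program, grouped by role, was then read in the same fit. It does not hold every gene of the program. Of the 70 tested, 12 were higher, 2 were lower and 56 were not called, beside 2.42% and 1.5% of all tested genes. The median log2 fold change of the tested list was 0.17 and that of all tested genes 0.0076. Leaving out WT replicates 1, 2 or 3 reduced the 14 called genes to 2, 1 and 1, and *Cxcr6* was called in all 15 fits. Leaving out *Tet2/3* DKO replicate 1 or 2 gave 24 and 22. The share of all tested genes called moved with these counts, to 1.14%, 0.822% and 0.956% without a WT library and to 9.13% and 8% without a *Tet2/3* DKO library.

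Of the cytokines, 2 of 9 could be tested and neither was called. *Il17a* was counted 0, 0 and 1 times in WT mice, against 9 and 0 times in *Tet2/3* DKO mice, so the IL-17A message was under the floor of 3 counts in all libraries except *Tet2/3* DKO replicate 1. *Il17f*, which encodes IL-17F, was counted 3, 4 and 3 times in WT mice, against 14 and 10 times in *Tet2/3* DKO mice (log2 fold change 2.20, standard error 0.54, adjusted p = 0.0308, edgeR). *Il22* was at 0 in every library. Of the ligands of the member receptors, 2 of 6 were tested and neither was called, with *Il1b* nearest (adjusted p = 0.625).

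No partner chain of the member receptors passed the test. *Il12rb1*, the partner of *Il23r*, was counted 178, 171 and 183 times in WT mice, against 176 and 381 times in *Tet2/3* DKO mice, a log2 fold change of 1.08 that did not pass the test (adjusted p = 0.0881, edgeR). *Il1rap*, the partner of *Il1r1*, had a log2 fold change of 0.39 (adjusted p = 0.278, edgeR). *Il17rc*, with 1, 3 and 0 against 5 and 2 counts, and *Il17rd*, with 0, 0 and 1 against 2 and 0, were too low to be tested. Among the 12 receptor chains of the list, *Il6ra*, the IL-6 receptor chain, fell from 293 to 158 CPM (log2 fold change -0.89, adjusted p = 0.00184), and *Tgfbr1*, a receptor of TGF-beta, rose by a log2 fold change of 0.99 (adjusted p = 0.00614, edgeR). The 13 signalling adaptors gave no call, and *Irak2* was nearest (log2 fold change -0.80, adjusted p = 0.0253).

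Of 8 tested factors that promote the program, *Batf*, which opens chromatin at type 17 genes, rose from 73.4 to 127 CPM (log2 fold change 0.79, adjusted p = 0.00173, edgeR). *Stat3*, which carries the IL-6 and IL-23 signal, had a log2 fold change of -0.11 (adjusted p = 0.589). Of 11 tested factors that restrain it, *Socs3*, the feedback inhibitor of STAT3 signalling, and *Gfi1*, a repressor, rose (log2 fold changes 1.36 and 1.24, adjusted p = 0.00233 and 0.00114, edgeR). *Foxp3*, the factor of regulatory T cells, fell from 52.3 to 21.1 CPM (log2 fold change -1.31, adjusted p = 0.00191, edgeR). Its strand columns, which keep reads on overlapping genes, sum to 1.95 times its count. *Id3*, *Stat5a*, *Smad7*, *Stat5b* and *Ets1* were apart and lower without passing the test (log2 fold changes -0.67, -0.55, -0.33, -0.28 and -0.26). *Bcl6* was apart and higher without passing it (0.79). Of the AHR partners and targets, 7 were tested and none was called, with *Arnt* at -0.11 (adjusted p = 0.736) and *Hsp90ab1* nearest (adjusted p = 0.0973). Of the MAF family, 1 of 6 tested genes was called, *Mafg*, at 0.97 (adjusted p = 0.00917, edgeR).

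The surface and effector genes held 7 of the 12 higher genes, out of 12 tested, and none of the lower ones, where 2.42% of all tested genes were called higher. Without passing the test, *Cd163l1* and *Aqp3* were apart and lower (log2 fold changes -1.17 and -0.13). Of these 7, *Blk*, *Sdc1* and *Kcnk1* were at the count minimum in 0 WT libraries and entered the test through the *Tet2/3* DKO libraries, where 11.4% of the genes at the minimum in fewer than 2 WT libraries were called. *Blk*, a kinase of type 17 gamma-delta T cells, was counted 3, 8 and 9 times in WT mice, against 116 and 295 times in *Tet2/3* DKO mice (log2 fold change 5.34, adjusted p = 0.00163, edgeR). *Sdc1*, a heparan sulfate proteoglycan that marks type 17 iNKT cells, had 3, 6 and 3 against 77 and 148 (5.18, adjusted p = 0.000877). *Kcnk1*, a potassium channel, had 1, 3 and 1 against 53 and 126, a ratio of summed counts of 71.0 (exact 95% interval 29.9 to 221; adjusted p = 0.000417, edgeR), and its strand columns sum to 1.49 times its count. In these 3 genes, as in *Maf* and *Il23r*, the second *Tet2/3* DKO library was the higher. *Cxcr6*, a chemokine receptor of tissue-resident lymphocytes, rose from 34.4 to 149 CPM (log2 fold change 2.11, adjusted p = 0.000457, edgeR). *Serpinb1a* (2.49), *Icos* (1.08) and *Tmem176a* (1.07) also rose, with adjusted p-values of 0.0022, 0.00532 and 0.00505 (edgeR). The restraining factors *Socs3* and *Gfi1* rose beside these genes, while *Foxp3* fell. Of the 11 tested restraining factors, 3 were apart and higher and 6 apart and lower, where 19.6% and 19.5% of all tested genes were. Neither tested cytokine passed the test.

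**Figure D5:**
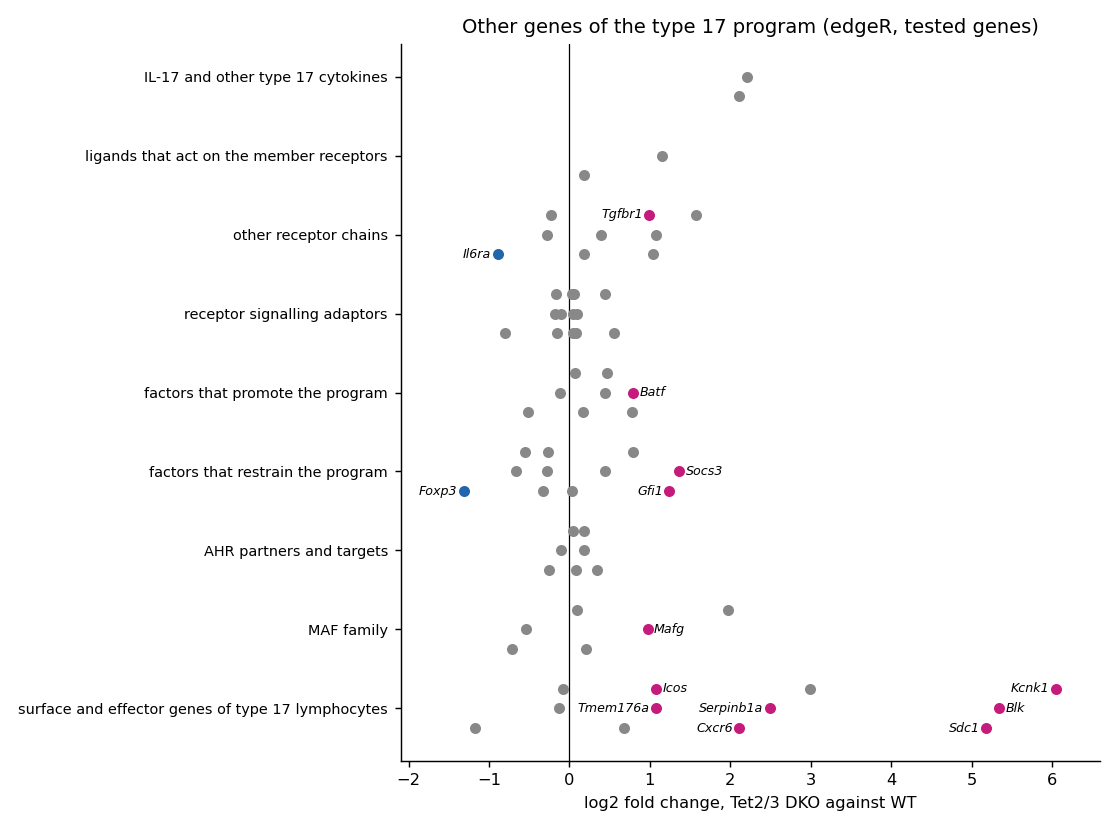
Log2 fold change (x axis) of the 70 tested genes of the type 17 list by role (rows), with called genes named, in pink when higher and blue when lower in *Tet2/3* DKO cells and grey otherwise. Of the 14 called genes, 7 lie in the row of surface and effector genes.

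Markers of cell types that make or share this program were read in the same libraries. Of 7 tested genes of gamma-delta T cells, *Tcrg-C1*, *Tcrg-C2* and *Tcrg-C4*, the constant regions of the gamma chain, rose with log2 fold changes of at least 4.04, and the list summed to 85.5 to 116 CPM in WT mice and 291 and 423 in *Tet2/3* DKO mice, in WT mostly *Sox4*. The other 4 were not called. *Trdc*, the delta chain constant region, had a log2 fold change of 0.33 (adjusted p = 0.377, edgeR), and its strand columns sum to 1.84 times its count. *Sox13*, a factor of type 17 gamma-delta T cells, went the other way, at 28, 25 and 26 reads against 5 and 4 (log2 fold change -2.12, adjusted p = 0.0361), as did *Sox4* (-0.48, adjusted p = 0.151). Of 5 tested innate-like T cell genes, *Zbtb16*, *Klrb1c*, *Klrd1* and *Slamf6* rose (log2 fold changes from 1.14 to 3.85), and the list summed to 374 to 421 CPM in WT mice and 715 and 891 in *Tet2/3* DKO mice, mostly *Slamf6*. Of 7 genes of regulatory T cells, a type known to carry CCR6, only *Foxp3* was called, lower. *Tnfrsf4* and *Tnfrsf18* were also lower in both *Tet2/3* DKO libraries without passing the test (log2 fold changes -1.18 and -0.49). The strand columns of *Tnfrsf18* sum to 2.19 times its count. For *Itgb8*, *Ikzf2* and *Ctla4* (log2 fold changes 0.73, 0.37 and 0.09) the *Tet2/3* DKO libraries lay on opposite sides of WT. So did those for *Il2ra* (-0.52), at 11.4 and 38.3 CPM against 33.7 to 37.4 in WT. The list summed to 750 to 942 CPM in WT mice and 372 and 607 in *Tet2/3* DKO mice, and *Tnfrsf4* made up the largest part of the sum in WT. The innate lymphoid cell list had 2 of 6 tested genes higher, among them *Ncr1*, which entered the test through the *Tet2/3* DKO libraries, and 2 others, *Kit* and *Gata3*, were apart and lower without passing the test (log2 fold changes -1.64 and -0.52). It summed to 273 to 302 CPM in WT mice and 274 and 444 in *Tet2/3* DKO mice. Of the 4 tested B cell genes *Ighm* rose, and without passing the test *Cd79b* was apart and higher (log2 fold change 0.75) and *Cd79a* apart and lower (-0.67). That list summed to 552 to 642 CPM against 1027 and 1232, nearly all of it *Ighm*. In the CD8 T cell list *Cd8b1* fell, while *Cd8a* was higher in both *Tet2/3* DKO libraries without passing the test (log2 fold change 0.94, adjusted p = 0.128), and *Cd8b1* was also the 1 called gene of the double-positive thymocyte list, in which *Dntt* and *Arpp21* were apart and lower without passing the test (log2 fold changes -0.53 and -1.36). No myeloid gene of 6 was called. The groups were apart and higher for 4 of them, where 19.6% of all tested genes were, with *Lyz2* at a log2 fold change of 1.76 and an adjusted p of 0.0143 (edgeR). Another of the 4, *Csf1r*, entered the test through the *Tet2/3* DKO libraries, and its strand columns sum to 10.9 times its count. *Flt3* was apart and lower (log2 fold change -1.64). The list summed to 112 to 125 CPM in WT mice and 151 and 224 in *Tet2/3* DKO mice, most of it *Cst3* in WT. No stromal gene of 3 was called. *Krt8* and *Psmb11* were apart and lower (log2 fold changes -2.52 and -5.05, adjusted p = 0.0642 and 0.0189, edgeR), and *Epcam* made up most of a sum of at most 14.0 CPM in WT mice and of 11.1 and 34.4 in *Tet2/3* DKO mice. *Rag1* was at 0 in all libraries, and no erythroid gene was expressed enough to be tested. The part of these cell types in the changes of the 9 genes was not tested. Of 10 genes of mature CD4 T cells, the labelled cell type, *Cd4*, *Ccr7* and *S1pr1* were lower. Without passing the test, *Klf2*, *Lck* and *Cd3e* were apart and lower and *Trbc1* was apart and higher (log2 fold change 0.30). The strand columns of *Cd3e* sum to 1.75 times its count. The list summed to 14449 to 15241 CPM in WT mice and 13846 and 12566 in *Tet2/3* DKO mice.

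In the T cell receptor alpha (TRA) reads, joins of the segments used by 2 invariant lineages that include type 17 cells were counted. Segments were matched by name and the junction sequence was not checked, so the joins need not come from iNKT or MAIT cells. Reads that joined TRAV11 to TRAJ18, as in iNKT cells, numbered 7, 5 and 4 of 10999, 8944 and 11215 TRA reads in WT and 8 and 1 of 9758 and 6401 in *Tet2/3* DKO libraries. Their share was 0.0517 ± 0.0144% in WT (SD, n = 3) and 0.0488 ± 0.0469% in *Tet2/3* DKO libraries (SD, n = 2). No difference was detected (two-sided exact permutation test, p = 1, where 0.1 is the smallest p that 3 against 2 libraries can give). TRAV1 joined to TRAJ33, as in MAIT cells, had 3, 2 and 2 against 2 and 0 reads (exact permutation p = 0.4, adjusted 0.8 over the 2 lineages), and 0 of 6401 reads allows a share of up to 0.0469%. The sort had gated against iNKT cells.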

How the data were processed

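The genes and lists were chosen with earlier results of these data known. Fastq files were made with bcl2fastq 2.20.0 and trimmed with fastp 0.21.0, and reads were aligned with STAR 2.7.5a to mm10 with a GRCm38 annotation, as given in the methods and the submitters' processing notes. The authors deposited 1 file per library with the raw read count of each gene, without normalization or pooling. Reads on several places or on overlapping genes were not counted, so genes that overlap others can be undercounted. T cell receptor clonotype counts were deposited too, by a tool not given in the sources used here.

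Counts without regard to strand were tested here with edgeR 4.0.16 in R 4.3.3 (quasi-likelihood test with the newer moderation, TMM scaling, filterByExpr by genotype with a minimum count of 10, Benjamini-Hochberg adjustment over all tested genes, threshold 0.01 as in the study). The study's tool, DESeq2 (1.42.0 here), was an alternative, as were other scalings, filters, dispersion moderation, a threshold of 0.05, a replicate block and leaving out each library. Standard errors were taken as |log2 fold change|/√F. CPM are TMM-scaled. Exact permutation tests used scipy 1.17.1. The edgeR step was tested on simulated data. Each library is 1 mouse, so n is mice.

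Symbols and coordinates came from GENCODE annotation of the same build, and 260 of 55487 identifiers had no symbol. Named were all 9 genes, called genes of the list, receptor partners, *Arnt*, *Stat3* and 3 cytokines, the gene with the smallest adjusted p in roles without a call, the 3 genes most like each called member, called markers and those at 0. Some genes that this rule names are not reported here. Values of *Trdc*, *Sox13*, *Sox4*, *Il21*, *Il1r2*, *Ltb4r1*, *Cd163l1*, *Aqp3* and markers that were not called were named after they were seen. The same holds for *Id3*, *Stat5a*, *Stat5b*, *Smad7*, *Ets1* and *Bcl6*. Intervals of fold changes come from edgeR and include the spread between libraries, whereas the exact intervals of count ratios cover counting error only, and reads carry no molecular identifiers.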

Additional observations from a re-analysis of the deposited data

How the results depend on the processing

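Over all tested genes the count of 530 called genes became 1027 with DESeq2, 1173 at a threshold of 0.05, and 110 to 1311 when each library was left out in turn. Of the 9 type 17 genes, 1 to 6 were called when a library was left out (1 without each WT library, 6 without *Tet2/3* DKO replicate 1, 4 without replicate 2) and 3 to 5 in the other settings. With a lone *Tet2/3* DKO library its spread is assumed to be that of the WT libraries. Of the list of 92 genes, 14 were called, with 1 to 24 when a library was left out and 22 at a threshold of 0.05. The log2 fold change of *Rora* ranged from -0.049, without WT replicate 2, to 0.16 as each library was left out, and was 0.17 with the replicate block. The difference in TRAV11-TRAJ18 joins ranged from -0.0361 to 0.0302 percentage points of reads as each library was left out. The cause of these changes was not tested. Keeping reads on overlapping genes, an alternative chosen after seeing the data, gave 558, 4 and 15 called genes.

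The replicate numbers of the labels were added as a replicate block. The fit called 358 genes, 3 of the 9 type 17 genes and 10 of the list. Deviations of same-numbered libraries from their group means correlated at 0.0151 and 0.00446. With 2 *Tet2/3* DKO libraries, the deviations from their mean are equal and opposite, so each holds only the difference between these libraries. Whether same-numbered libraries share more than a number was not tested. *Il1r1* lost its call under the block.

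With 3 and 2 libraries and counts under 10 in WT, the sizes of *Il23r* and *Il1r1* changes are imprecise, and *Il17a*, *Il17rc* and *Il17rd* were below the depth needed for a test.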

Other observations

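Some genes of the type 17 list differed mainly between the *Tet2/3* DKO libraries. *Il21*, the cytokine IL-21, was counted 39, 48 and 28 times in WT mice, against 9 and 237 times in *Tet2/3* DKO mice. *Il1r2*, the decoy receptor that binds IL-1 without signalling, was counted 314, 265 and 258 times in WT mice, against 26 and 801 times in *Tet2/3* DKO mice. In both genes the *Tet2/3* DKO libraries lay on opposite sides of WT, and neither passed the test (adjusted p = 0.206 and 0.501, edgeR). *Ltb4r1*, a leukotriene B4 receptor, was counted 7, 7 and 6 times in WT mice, against 10 and 71 times in *Tet2/3* DKO mice, and it was not called. These genes were singled out after their values were seen.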
